A study of Bos taurus with 15 samples.

Results

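Helium-vitrified bovine oocytes, cooled in the liquid gas at a cryoprotectant concentration of 5.6 M, were set against fresh oocytes, by the transcript counts of every gene. The comparison was defined by the sample labels alone and used 6 of the 15 libraries of the series, 3 of helium 5.6 M oocytes (labelled 3, 4 and 5) and 3 of fresh oocytes (labelled 1, 2 and 3). The other 9 libraries came from oocytes vitrified in helium at 6.6 M or in liquid nitrogen at 5.6 M or 6.6 M, 3 libraries each, and the series asked how coolant and cryoprotectant concentration bear on the oocyte's mRNA. Both groups were ovarian oocytes that the labels describe as matured in vitro, at 38.5 °C for 22 to 24 h, and then stripped of cumulus cells with hyaluronidase. The series title calls the oocytes immature, and these sources do not settle the stage. The labels give no cow breed or age, no name for the cryoprotective agent and no time between warming and lysis. They speak of RNA from single cells but not of how many oocytes went into a library, and whether the 3 libraries of a group came from separate animals or collections is not given in the sources used here. The p-values below therefore take their error from library-to-library variation, whose source may be technical.

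Vitrification cools a cell so fast, in a solution so concentrated, that its water solidifies as a glass and ice crystals do not form. Liquid helium is colder than liquid nitrogen, which makes it a candidate for faster cooling at a lower load of cryoprotectant. A fully grown oocyte transcribes little or nothing. Its messenger RNAs were made during growth and are stored, translated or degraded on a schedule that runs through maturation and fertilisation to the activation of the embryo's own genome. A difference in transcript level between 2 groups of such cells can therefore arise without any new transcription, and where a library held more than 1 cell, fewer cells with a transcript and less of it per cell cannot be told apart.

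Total counts were 6346848 to 8569618 in the helium 5.6 M libraries and 1601519 to 2822837 in the fresh libraries, so that depth and group cannot be told apart between them. Log2 CPM (counts scaled to the library's total) correlated at 0.982 to 0.986 between the helium libraries, at 0.941 to 0.962 between the groups and at 0.920 to 0.944 between the fresh libraries (Pearson's r across genes, which are not independent replicates). Fresh library 2 stood apart from its group, with 9743 genes at 1 FPKM (counts scaled to gene length and to the library's total) or more against 8554 and 8422 in fresh libraries 1 and 3. Genes at that level numbered 9181 ± 175 per helium 5.6 M library and 8906 ± 728 per fresh library (SD, n = 3 each), a difference of 275 (exact permutation test, two-sided, p = 0.5). Without fresh library 2 that difference was 693 (p = 0.1, same exact test, the smallest it allows). Of 16 oocyte markers 14 were in the table and none was at 0 in any of the 6 libraries, and their summed level was 8021 to 8679 CPM in helium 5.6 M oocytes and 4155 to 8260 CPM in fresh oocytes. The 18 cumulus and granulosa cell markers in the table summed to 384 to 435 CPM in helium 5.6 M oocytes and 386 to 548 CPM in fresh oocytes. The follicle-cell genes FSHR and FOXL2 were at 0 in all 6 libraries, but other members were present in all 6. STAR averaged 59.6 FPKM in helium 5.6 M and 70.5 FPKM in fresh oocytes, HAS2 34.1 and 41.3 FPKM, and PTGS2 18.8 and 22.8 FPKM. SERPINE2 went the other way, at 22.5 FPKM in helium 5.6 M and 10.1 FPKM in fresh oocytes. Markers of blood and immune cells summed to at most 7.0 CPM in helium 5.6 M oocytes and 3.65 CPM in fresh oocytes, with 4 of 7 genes at 0 throughout. Stroma markers summed to 13.4 to 15.3 CPM in helium 5.6 M oocytes and 3.75 to 9.12 CPM in fresh oocytes, and sperm markers to at most 0.233 CPM in helium 5.6 M oocytes and 1.06 CPM in fresh oocytes.

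Between helium 5.6 M and fresh oocytes, 40 of 8441 genes tested passed (0.474% of them, quasi-likelihood test of edgeR, adjusted after Benjamini and Hochberg, threshold 0.05). Transcripts of 16 genes were higher (0.190%) and of 24 genes lower (0.284%) in helium 5.6 M oocytes. Among the higher genes were SNRPC, CWC15, PYM1 and POP4 of RNA processing, UBE2C, NEK2 and NUSAP1 of cell division, and the amino acid transporter gene SLC7A3. The lower set held genes of RNA-binding proteins, ribosomal protein genes and many very short genes, 5 of them mitochondrial. In each of the 40 genes the libraries of both groups did not overlap, and the same held for 1352 of the 8441 genes tested (16.0%), 762 with helium 5.6 M above fresh and 590 with helium 5.6 M below. Over all genes tested, the median log2 fold change was 0.00 and the quartiles were -0.28 and 0.27. A change of at least 2-fold was estimated for 282 genes, and for 4884 genes (57.9%) the 95% interval lay wholly within a 2-fold change in either direction. The count of 40 rested on single libraries. It was 431 without fresh library 2, 2 without fresh library 1, 20 without fresh library 3, and 1, 2 and 1 without helium libraries 3, 4 and 5. It was 5 in a fit of these 6 libraries alone, 24 after all libraries were thinned to 1601519 counts, and 0 (993 at an unadjusted p under 0.05, as against 1193 without the term) with depth class as a term, which the nitrogen 6.6 M group alone makes estimable.

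**Figure D1:**
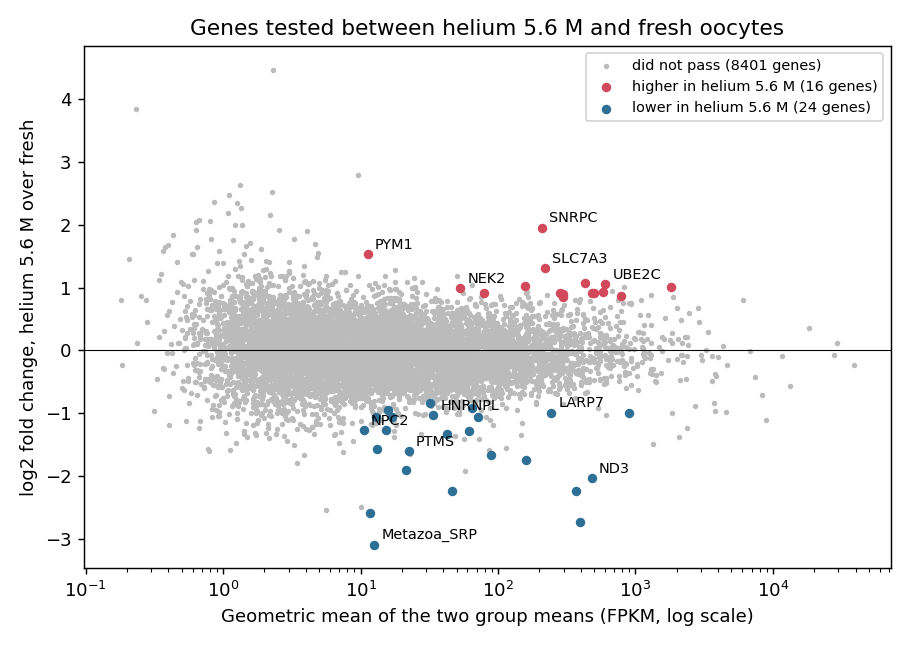
Log2 fold change of helium 5.6 M over fresh oocytes (vertical axis) against the geometric mean of both group means in FPKM (horizontal axis, log scale) for the 8441 genes tested. Red points are the 16 genes that passed as higher in helium 5.6 M oocytes, blue points the 24 that passed as lower and grey points the rest, and the higher set reaches 1.95 (SNRPC) and the lower set -3.09 (Metazoa_SRP).

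SNRPC and PYM1, single genes of intron recognition and of the handling of spliced mRNA, had the largest log2 fold changes of the higher set. SNRPC encodes the C protein of the U1 small nuclear ribonucleoprotein, which pairs with the start of an intron. The gene (ENSBTAG00000024549, chr23:8726525-8737237; spans are those of the deposited table on UMD3.1) stood at 539.6, 374 and 354 FPKM in the helium 5.6 M libraries, against 76.3, 125 and 111 FPKM in the fresh libraries. The lowest helium library lay far above the highest fresh one. Its log2 fold change was 1.95 (95% interval 1.52 to 2.39, edgeR adjusted p = 0.000104), a 3.87-fold difference. It alone of the 40 genes passed in 6 of 6 fits that each left out 1 of the 6 libraries. With depth class as a term its log2 fold change was 1.86, with an edgeR adjusted p of 0.153. PYM1 (ENSBTAG00000031146, chr5:57703547-57724145) encodes a factor that strips exon junction complexes from mRNA during translation. Its level was 24.6, 18.5 and 15.3 FPKM in helium 5.6 M oocytes and 5.73, 8.38 and 5.53 FPKM in fresh oocytes, a low-abundance transcript in both groups. It rose by 1.53 on the log2 scale (95% interval 0.83 to 2.23, edgeR adjusted p = 0.0462), and its log2 fold change was 2.13 with depth class as a term, where it did not pass. POP4 (ENSBTAG00000002223, chr18:40370765-40379995), a protein subunit of the tRNA-trimming ribonuclease P, had 248, 222 and 214 FPKM in helium 5.6 M oocytes and 65.8, 143 and 115 FPKM in fresh oocytes. The fresh libraries spread more widely (SD 39.2 FPKM) than the helium ones (SD 17.7 FPKM), and the log2 fold change was 1.03 (0.60 to 1.46, edgeR adjusted p = 0.0402). CWC15 (chr15:15705460-15713952), a component of the active spliceosome, averaged 412 ± 53.3 FPKM in helium 5.6 M oocytes and 212 ± 9.80 FPKM in fresh oocytes (SD, n = 3 each), with a log2 fold change of 0.89 (edgeR adjusted p = 0.0435).

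Most genes of the splicing machinery did not pass, as held for all genes tested, of which 0.474% passed. Of 56 tested genes of the U1 particle and the spliceosome, 2 passed as higher and 0 as lower, and their median log2 fold change was 0.07, against 0.00 over all genes tested. SNRNP40, of the U5 particle, and PRPF3, of the U4/U6 particle, had log2 differences of 0.82 and 0.69 and did not pass (edgeR adjusted p = 0.0648 and 0.106). Of 26 tested genes of the exon junction complex and mRNA surveillance, 1 passed, PYM1, and the median was 0.07. The surveillance factor UPF3A had a log2 difference of -0.59 and the cap-binding subunit NCBP2 one of -0.45, neither past the threshold. SAP18, a junction-associated protein, stood at 0.40 without passing.

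Genes of several other RNA-binding proteins fell. HNRNPL encodes a heterogeneous nuclear ribonucleoprotein that binds CA-rich stretches and can silence or favour exons. Its level (ENSBTAG00000001055, chr18:48823774-48835620) was 28.1, 25.8 and 18.6 FPKM in helium 5.6 M oocytes, against 47.7, 53.5 and 41.4 FPKM in fresh oocytes. No helium library reached the lowest fresh one, and the log2 fold change was -1.03 (95% interval -1.47 to -0.60, edgeR adjusted p = 0.0402). LARP7 (ENSBTAG00000009632, chr6:14136250-14171143), the La-related protein that keeps 7SK RNA stable and so holds back transcription elongation, had 200.5, 171 and 163 FPKM in helium 5.6 M oocytes and 344, 286 and 367 FPKM in fresh oocytes. The log2 fold change was -0.997 (-1.44 to -0.56, edgeR adjusted p = 0.0402). FUBP3, a KH-domain protein that binds single-stranded nucleic acid, averaged 11.5 ± 2.31 FPKM in helium 5.6 M oocytes and 21.6 ± 3.38 FPKM in fresh oocytes and fell by 0.96 on the log2 scale (edgeR adjusted p = 0.0402). Of 49 tested hnRNP, SR protein and related splicing regulator genes, 0 passed as higher and 2 as lower (HNRNPL and FUBP3), and 29 of the 49 lay below 0 with a median of -0.12. With depth class as a term that median was 0.14. Of the members that did not pass, those of smallest p pointed in opposite directions: SRSF7, an SR protein, had a log2 difference of 0.72 and SON, a scaffold of nuclear speckles, one of -1.01. Of 41 tested genes of maternal mRNA storage and decay, 0 passed in either direction, near the 0.474% of all genes tested, with a median of 0.04. The 4 with the smallest p, CPEB3, the deadenylase genes CNOT7 and PAN2, and ZFP36L1, had log2 differences of -0.67, -0.61, -0.63 and -0.70.

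**Figure D2:**
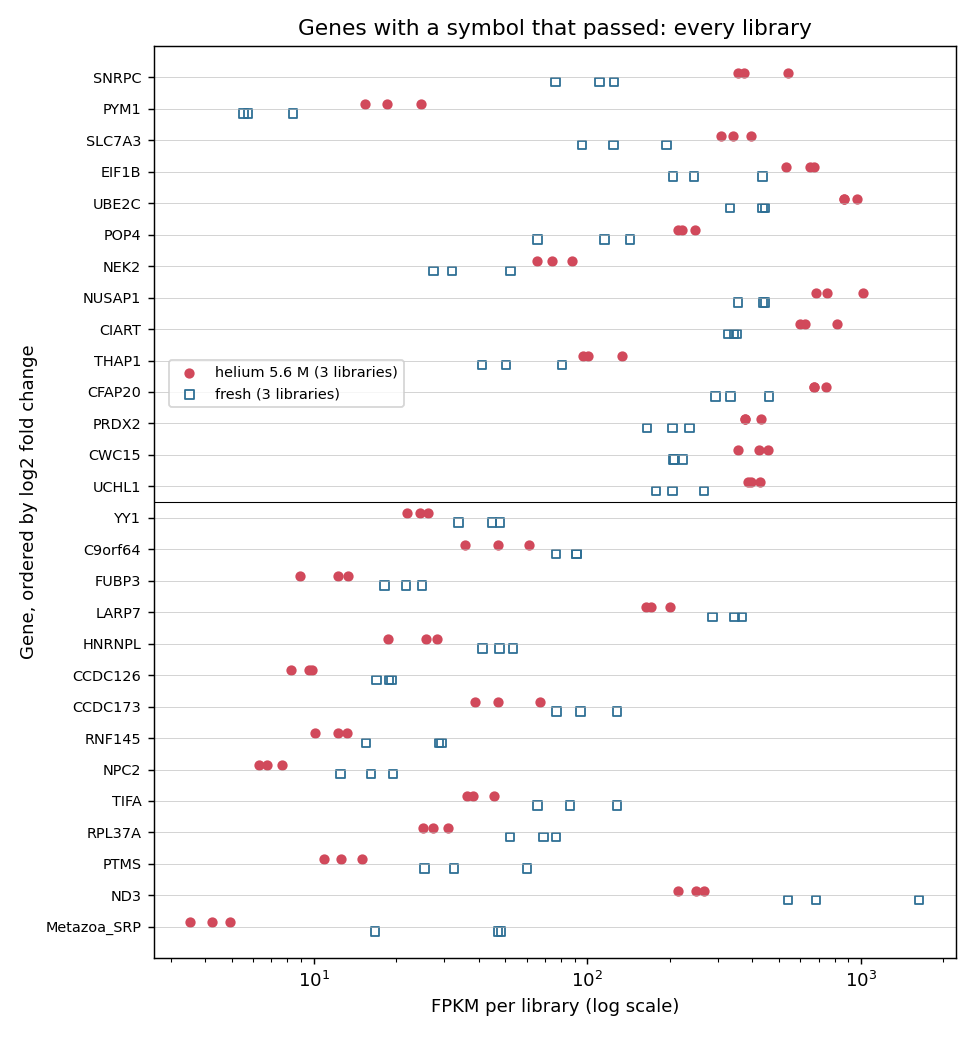
FPKM (horizontal axis, log scale) in every helium 5.6 M library (filled circles) and every fresh library (open squares) for 28 of the 29 genes with a symbol that passed, ordered by log2 fold change from SNRPC at the top to Metazoa_SRP at the bottom. The line separates the 14 higher genes from the 14 lower ones, and in no row do the circles and squares overlap, which held for 16.0% of all genes tested.

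Of the cell-division genes, UBE2C, NEK2 and NUSAP1 rose. UBE2C encodes the ubiquitin-conjugating enzyme with which the anaphase-promoting complex marks cyclin B and securin for destruction. It stood (ENSBTAG00000016746, chr13:75306757-75310188) at 965, 870.1 and 865 FPKM in helium 5.6 M oocytes, against 446, 332 and 436 FPKM in fresh oocytes. Helium libraries lay within a narrow range well above the fresh ones, and the log2 fold change was 1.05 (95% interval 0.59 to 1.52, edgeR adjusted p = 0.0402). NEK2 (ENSBTAG00000009618, chr16:73674452-73683624), a kinase that loosens the link between centrosomes, had 87.5, 73.9 and 65.3 FPKM in helium 5.6 M oocytes and 27.3, 52.4 and 32.0 FPKM in fresh oocytes. Fresh library 2 was the highest of its group, and the log2 fold change was 0.99 (0.56 to 1.42, edgeR adjusted p = 0.0402). NUSAP1 (ENSBTAG00000010774, chr10:36906002-36936265), which bundles spindle microtubules around chromatin, had 1019, 752 and 683 FPKM in helium 5.6 M oocytes and 439, 445 and 355 FPKM in fresh oocytes. Its log2 fold change was 0.92 (0.50 to 1.35, edgeR adjusted p = 0.0465). Of 51 tested genes of the meiotic cell cycle, UBE2C was the 1 that passed, with a list median of 0.06, and of 71 tested spindle, kinetochore and centrosome genes 2 passed as higher, with a median of 0.05. The checkpoint gene BUB3, the cyclin genes CCNB2 and CCNB3 and the kinetochore gene SPC25 had log2 differences of 0.76, 0.67, 0.83 and 0.76 that did not pass (edgeR adjusted p = 0.0651, 0.0833, 0.174 and 0.159). The centromere gene CENPL stood at -0.57, also short of the threshold.

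SLC7A3 and EIF1B, genes of amino acid uptake and of translation, rose. SLC7A3 encodes a transporter of arginine, lysine and ornithine. It stood (ENSBTAG00000007403, chrX:85010185-85015644) at 395, 307 and 341 FPKM in helium 5.6 M oocytes, against 95.4, 195 and 125 FPKM in fresh oocytes. The groups were well apart, with a log2 fold change of 1.31 (95% interval 0.87 to 1.75, edgeR adjusted p = 0.00704), and the gene passed in 3 of 6 fits that left out 1 library. Of 25 tested genes of osmotic, water and solute transport it was the 1 that passed, and the list's median was 0.09. The bicarbonate transporter SLC4A7 and the sodium pump subunit gene ATP1B3 had log2 differences of -0.51 and -0.51 and did not pass. EIF1B (ENSBTAG00000019106, chr22:13214224-13216690), a close relative of the initiation factor that guides start-codon choice, had 674, 534 and 651 FPKM in helium 5.6 M oocytes and 246, 436 and 206 FPKM in fresh oocytes. The log2 fold change was 1.07 (0.62 to 1.52, edgeR adjusted p = 0.0402). It was the 1 gene of 48 initiation factor and tRNA synthetase genes tested that passed, with a list median of 0.02, while TARS, EIF3M and EIF3H stood at 0.79, -0.94 and 0.69 without passing.

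PRDX2 (ENSBTAG00000012062, chr7:13845843-13848479), a cytosolic enzyme that reduces peroxides, had 375, 430.3 and 377 FPKM in helium 5.6 M oocytes and 165, 236 and 205 FPKM in fresh oocytes. The difference exceeded the spread of both groups, with a log2 fold change of 0.91 (95% interval 0.55 to 1.27, edgeR adjusted p = 0.0304). Of 29 tested antioxidant genes PRDX2 was the 1 that passed, and the list's median was 0.09. PRDX1, GSR and PRDX3 had log2 differences of 0.46, -0.39 and 0.38 and did not pass. UCHL1, an abundant deubiquitinating enzyme of oocytes and neurons, averaged 403 ± 21.3 FPKM in helium 5.6 M oocytes and 217 ± 45.2 FPKM in fresh oocytes, with a log2 fold change of 0.86 (edgeR adjusted p = 0.0402). It was the 1 of 29 tested oocyte-secreted, zona pellucida and maternal-effect genes that passed, and 21 of the 29 lay above 0 with a median of 0.26. CD9, an egg surface protein with a role in sperm fusion, the growth factor gene GDF9 and the zona gene ZP2 had log2 differences of 1.08, 0.62 and 0.57 that did not pass (edgeR adjusted p = 0.112, 0.184 and 0.204). The summed oocyte markers of fresh library 2, 8260 CPM, lay within the helium 5.6 M range, unlike those of fresh libraries 1 and 3 at 4155 and 4865 CPM. The meiotic kinase gene MOS stood at 579, 670.2 and 552 FPKM in helium 5.6 M oocytes, and at 159, 848 and 193 FPKM in fresh libraries 1, 2 and 3.

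CIART, a repressor of the circadian clock (ENSBTAG00000021487, chr3:20400969-20404292), had 815, 625 and 597 FPKM in helium 5.6 M oocytes, against 327, 344 and 353 FPKM in fresh oocytes. Its fresh libraries were, relative to their mean, the most alike of the 16 higher genes, and the log2 fold change was 0.91 (95% interval 0.50 to 1.32, edgeR adjusted p = 0.0435). Of 18 tested immediate early and stress genes CIART was the 1 that passed, and the list's median was -0.10. That median was 0.40 without fresh library 2, -0.37 without fresh library 3 and 0.18 with depth class as a term. BTG1, NR4A2 and JUN had log2 differences of -0.71, -1.18 and -0.85 and did not pass. THAP1 (ENSBTAG00000007629, chr27:37234389-37240538), a zinc-finger regulator of cell proliferation genes, had 134, 100.2 and 96.2 FPKM in helium 5.6 M oocytes and 41.1, 80.6 and 50.4 FPKM in fresh oocytes, with a log2 fold change of 0.91 (edgeR adjusted p = 0.0402). CFAP20 (ENSBTAG00000013874, chr18:26077404-26090645), a protein of ciliary microtubules, had 747, 675 and 675 FPKM in helium 5.6 M oocytes and 293, 461 and 333 FPKM in fresh oocytes, and its log2 fold change was also 0.91 (edgeR adjusted p = 0.0304). The other 2 higher genes had neither symbol nor description in the table. ENSBTAG00000020620 averaged 2619 ± 395 FPKM in helium 5.6 M oocytes and 1258 ± 142 FPKM in fresh oocytes, and ENSBTAG00000020685 averaged 1068 ± 146 and 572 ± 104 FPKM in the same order of groups (SD, n = 3 each). Both lie on chromosome 4.

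Genes of nuclear and signalling proteins were among the other falls. PTMS (ENSBTAG00000018451, chr5:104039252-104040499), which encodes the acidic nuclear protein parathymosin, had 12.6, 14.9 and 10.9 FPKM in helium 5.6 M oocytes and 32.5, 60.1 and 25.3 FPKM in fresh oocytes. Fresh library 2 was the highest by far, and the log2 fold change was -1.61 (-2.31 to -0.91, edgeR adjusted p = 0.0402), or -0.49 with depth class as a term (edgeR adjusted p = 0.759). TIFA (ENSBTAG00000027655, chr6:14411562-14419292), an adaptor that passes innate immune signals to TRAF6, had 45.4, 38.0 and 36.3 FPKM in helium 5.6 M oocytes and 128, 86.3 and 65.7 FPKM in fresh oocytes. It fell by 1.29 on the log2 scale (edgeR adjusted p = 0.0304).

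NPC2 encodes the soluble lysosomal protein that hands cholesterol on for export, and it was a rare transcript in these oocytes. It stood (ENSBTAG00000021955, chr10:86170653-86179237) at 7.66, 6.74 and 6.30 FPKM in helium 5.6 M oocytes, against 12.5, 19.5 and 16.1 FPKM in fresh oocytes. The log2 fold change was -1.28 (95% interval -1.87 to -0.68, edgeR adjusted p = 0.0481), the nearest to the threshold of the 29 genes. RNF145 (ENSBTAG00000025099, chr7:72843640-72906344), which was not on the lipid list below, encodes a ubiquitin ligase of the endoplasmic reticulum. It had 13.2, 12.3 and 10.1 FPKM in helium 5.6 M oocytes and 28.7, 29.2 and 15.5 FPKM in fresh oocytes. Fresh library 3 lay closer to the helium libraries than to the other two fresh ones, and the log2 fold change was -1.07 (-1.51 to -0.62, edgeR adjusted p = 0.0402). Of 44 tested genes of the lysosome, cholesterol and lipid handling NPC2 was the 1 that passed, 22 lay above and 22 below 0, and the median was 0.00. The lipid-droplet coat gene PLIN2, the mitochondrial thiolase gene ACAT1 and the lysosomal activator gene PSAP had log2 differences of 0.78, 0.82 and -1.12 and did not pass.

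CCDC173 (ENSBTAG00000001090, chr2:26666110-26690420), a coiled-coil protein gene, had 67.3, 47.2 and 38.7 FPKM in helium 5.6 M oocytes, against 128, 77.0 and 94.3 FPKM in fresh oocytes. The distance between the nearest libraries was small, and the log2 fold change was -1.07 (95% interval -1.56 to -0.58, edgeR adjusted p = 0.0465). CCDC126 (ENSBTAG00000013010, chr4:32356965-32399552), another gene of that kind, had 9.85, 9.61 and 8.28 FPKM in helium 5.6 M oocytes and 16.9, 18.9 and 19.2 FPKM in fresh oocytes. Its libraries were tight in both groups, with a log2 fold change of -1.07 (edgeR adjusted p = 0.0462). C9orf64 averaged 48.0 ± 12.6 FPKM in helium 5.6 M oocytes and 86.4 ± 8.36 FPKM in fresh oocytes, a log2 fold change of -0.92 (edgeR adjusted p = 0.0402). YY1, a zinc-finger transcription factor that bridges enhancers and promoters, averaged 24.2 ± 2.15 FPKM in helium 5.6 M oocytes and 42.2 ± 7.36 FPKM in fresh oocytes. It fell by 0.84 on the log2 scale (edgeR adjusted p = 0.0462), the smallest change among the 40 genes.

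The steepest falls were in short non-coding and mitochondrial genes. Metazoa_SRP is the table's name for a copy of the signal recognition particle RNA, the scaffold of the particle that brings nascent secretory proteins to the endoplasmic reticulum. This copy (ENSBTAG00000048185, chr9:2105887-2106183, 297 bases) stood at 3.54, 4.95 and 4.24 FPKM in helium 5.6 M oocytes, against 48.4, 47.1 and 16.7 FPKM in fresh oocytes. Its log2 fold change was -3.09 (95% interval -4.13 to -2.06, edgeR adjusted p = 0.00704), or -2.09 with depth class as a term. Such RNA has many near-identical copies in a mammalian genome, among which the authors' counting may have divided reads, so the value is uncertain. Another copy tested, on chromosome 10, had a log2 difference of -2.55 and did not pass (edgeR adjusted p = 0.0902). ENSBTAG00000040155, a gene of 312 bases without symbol or description, averaged 4.71 ± 0.748 FPKM in helium 5.6 M oocytes and 28.8 ± 8.93 FPKM in fresh oocytes, a log2 fold change of -2.60 (edgeR adjusted p = 0.00704). ND3, a core subunit of respiratory complex I encoded on the mitochondrial genome (ENSBTAG00000043568, chrMT:9823-10168), had 249, 268 and 215 FPKM in helium 5.6 M oocytes and 1630, 685 and 542 FPKM in fresh oocytes. Fresh library 1 was the highest by far, and the log2 fold change was -2.04 (-2.75 to -1.33, edgeR adjusted p = 0.009). It was -1.33 without fresh library 1 (edgeR adjusted p = 0.0671) and -0.97 with depth class as a term (0.474).

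Mitochondrial genes shared the direction of ND3. All 28 tested lay below 0, with a median log2 fold change of -1.29 and a range from -2.73 to -0.24, 17 of the 28 had helium libraries wholly below the fresh ones, as did 590 of all 8441 genes tested (6.99%), and 5 passed as lower, against 0.284% of all genes tested. The 4 that passed beside ND3 were genes of 66 to 69 bases with no symbol. The one with the largest change, ENSBTAG00000043582 (chrMT:15726-15791), had 164, 168 and 143 FPKM in helium 5.6 M oocytes and 1589, 424 and 896 FPKM in fresh oocytes, with a log2 fold change of -2.73 (edgeR adjusted p = 0.00704). Among the 13 mitochondrial genes of 66 to 75 bases the median was -1.56, and among the 15 longer ones, of 201 to 1821 bases, it was -0.98. Of the 13 symbols of mitochondrially encoded proteins listed, 11 matched the table (which names the other 2 COII and cytb), 1 passed, and their median was -1.03. The complex I genes ND6 and ND2 and the ATP synthase gene ATP8 had log2 differences of -1.50, -1.23 and -1.38 that did not pass (edgeR adjusted p = 0.0816, 0.112 and 0.106), and COX1 had the difference nearest 0 among those with a symbol, -0.41. The median of the 11 was -0.53 without fresh library 1, -1.44 without fresh library 2 and 0.02 with depth class as a term. All counts on mitochondrial genes together made up 3.75% ± 0.260 of a helium 5.6 M library and 5.97% ± 2.38 of a fresh library (SD, n = 3 each). The helium shares were 3.63%, 4.05% and 3.57%, and the fresh shares 8.66%, 4.14% and 5.12%. The groups did not overlap, by a small margin, and the difference of -2.23 percentage points had p = 0.1 in an exact permutation test, two-sided, the smallest that 20 splits allow. Without fresh library 1 it was -0.882 points. On the 11 matched protein genes alone the difference was -1.63 points (p = 0.3, same exact test). There the groups overlapped, with helium shares of 2.43%, 2.61% and 1.99% and fresh shares of 5.94%, 2.32% and 3.67%. Of 55 tested nuclear genes of oxidative phosphorylation 0 passed, near the 0.474% of all genes tested, with a median of 0.08. ISCU, NDUFS3, NDUFA10 and NDUFS8 stood above 0 at 0.99, 1.15, 1.70 and 0.84 without passing.

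Ribosomal protein genes also lay mostly below 0, and 3 genes so named or described fell. RPL37A (ENSBTAG00000003846, chr2:105202277-105204896), a protein of the large ribosomal subunit, had 31.0, 25.2 and 27.3 FPKM in helium 5.6 M oocytes, against 52.1, 69.2 and 76.9 FPKM in fresh oocytes. The log2 fold change was -1.33 (95% interval -1.95 to -0.72, edgeR adjusted p = 0.0462), or -2.33 with depth class as a term (edgeR adjusted p = 0.0968). The 2 genes with no symbol that the table describes as ribosomal proteins L39 and L6 passed as well: ENSBTAG00000047136, of 156 bases, with a log2 fold change of -1.91 (edgeR adjusted p = 0.0449), and ENSBTAG00000031723, with one of -1.28 (edgeR adjusted p = 0.0402). Of 42 tested cytosolic ribosomal protein genes with a symbol, RPL37A was the 1 that passed, 31 lay below 0, and the median was -0.37. RPS12, RPS27 and RPL37 had log2 differences of -1.11, -1.66 and -0.92 and did not pass (edgeR adjusted p = 0.0816, 0.096 and 0.11). Ribosomal protein genes have many processed copies in the genome, and the counting of multiply placed reads is not described in these sources.

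Genes under 500 bases had lower medians than the longer classes. Of 29 tested genes under 200 bases, 5 passed as lower and 0 as higher, with a median log2 fold change of -1.01, and 13 of the 29 were mitochondrial. The 16 that were not mitochondrial had a median of -0.27, and 1 of them passed. Of 235 genes from 200 bases to below 500, 4 passed as lower and 0 as higher, with a median of -0.14. Longer classes had medians within 0.05 of 0: genes of 500 to below 1000 bases had a median of 0.05, with 5 higher and 4 lower, and those of 1000 to below 2000 bases one of 0.04, with 9 higher and 7 lower. Of the 4341 genes of 2000 bases and over, 2 passed as higher and 4 as lower, with a median of -0.02. The 16 higher genes had a median length of 1112 bases and the 24 lower genes one of 858 bases, against 2045 bases for the 8401 genes that did not pass. The part of gene length in these results was not tested.

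Depth moved with some of the lower genes also outside the 6 libraries. Of the 15 libraries of the series 7 were deeper (all 6 helium libraries and nitrogen 6.6 M library 3, with 7392972 counts) and 8 shallower, and the deeper ones include the helium 5.6 M group just as the shallower ones include the fresh group. ND3 stood at 215 to 281 FPKM in the 7 deeper libraries and at 539 to 1630 FPKM in the 8 shallower ones. In nitrogen 6.6 M library 3 alone it stood at 281 FPKM, and in its shallower companions, libraries 1 and 2, at 641 and 539 FPKM. The level of ND3 in that nitrogen library was thus nearer to the helium libraries than to its own group. Mitochondrial genes together made up 2.41% of the counts of that nitrogen library, against 4.915% and 4.57% in libraries 1 and 2. In the helium 5.6 M libraries that share was 3.57% to 4.05%. Metazoa_SRP stood at 10.5 FPKM in that library, against 30.5 and 12.9 FPKM in its companions. In 7 of the 24 lower genes the deeper libraries lay wholly below the shallower ones, as in 19 of all 8441 genes tested (0.225%). ND3, Metazoa_SRP, ENSBTAG00000040155 and 3 mitochondrial genes with no symbol were among the 7. The 24 genes already had helium 5.6 M wholly below fresh, which is part of that ordering, so a larger share among them is built in. Of the 16 higher genes THAP1 alone had its deeper libraries wholly above. For some other lower genes nitrogen 6.6 M library 3 lay within the range of its companions. HNRNPL stood at 39.4 FPKM in it and at 45.5 and 32.9 FPKM in libraries 1 and 2. LARP7 stood at 271 FPKM against 271 and 284 FPKM, and CCDC173 at 95.4 FPKM against 100.5 and 84.0 FPKM. For RPL37A that library lay above both, at 55.2 FPKM against 20.6 and 33.7 FPKM. As a log2 difference from its companions, 12 of the 24 lower genes lay below 0 in it and 12 above, with a median of -0.01. After all libraries were thinned to the same total, ND3 (edgeR adjusted p = 0.0147) and HNRNPL (0.047) passed and YY1 (0.154) did not. With depth class as a term none of the 40 passed, ND3 among them, at a log2 fold change of -0.97. What else may have differed between the deeper and the shallower libraries was not tested.

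**Figure D3:**
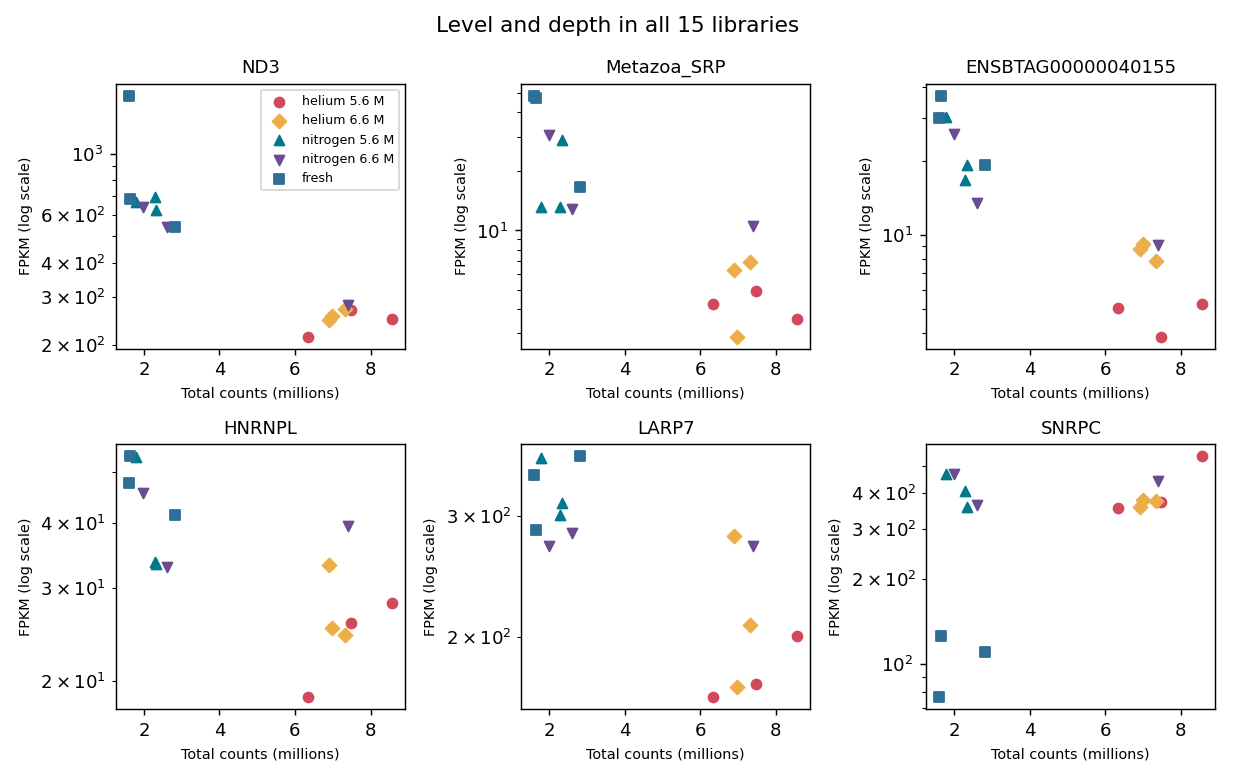
FPKM (vertical axes, log scale) against the total counts of the library (horizontal axes) for 6 genes in all 15 libraries, by group. ND3, Metazoa_SRP and ENSBTAG00000040155 are lower in all 7 deeper libraries, nitrogen 6.6 M library 3 among them, whereas the 5 lowest libraries for HNRNPL and for LARP7 are helium ones and the 3 lowest for SNRPC are the fresh ones.

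The same genes were then read in the other vitrified groups, each set against the same 3 fresh libraries. A fresh library that stands apart therefore moves all of them together. The genes were chosen for their difference between helium 5.6 M and fresh oocytes, which by itself favours helium 5.6 M as the group furthest from 0. For the 16 higher genes the median log2 fold change was 0.96 in helium 5.6 M, 0.90 in helium 6.6 M, 0.81 in nitrogen 5.6 M and 0.88 in nitrogen 6.6 M oocytes. For the 24 lower genes it was -1.31 in helium 5.6 M, -1.18 in helium 6.6 M, -0.47 in nitrogen 5.6 M and -0.78 in nitrogen 6.6 M oocytes. Over all 28 mitochondrial genes tested it was -1.29, -1.36, -0.43 and -0.80 in that order of groups. SNRPC had values of 1.95, 1.75, 2.01 and 2.05 in that order of groups, and UBE2C 1.05, 0.99, 1.07 and 1.19. NEK2 had 0.99, 0.78, 0.34 and 0.56. RNF145 had -1.07 and -1.07 with helium and -0.01 and -0.36 with nitrogen, and LARP7 -0.997 and -0.74 with helium and -0.04 and -0.28 with nitrogen.

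The difference between helium 5.6 M oocytes and the mean of the other 3 vitrified groups, a contrast that uses no fresh library, was tested in the same fit. No gene of 8441 passed (0.00%), with 549 at an unadjusted p under 0.05 by edgeR and 2 passing by DESeq2. The genes with the smallest p, none of which passed (smallest edgeR adjusted p = 0.698), included the respiratory complex I gene NDUFA1, which averaged 95.3 FPKM in helium 5.6 M, 96.9 FPKM in helium 6.6 M, 217 FPKM in nitrogen 5.6 M and 211 FPKM in nitrogen 6.6 M oocytes. KBTBD3 averaged 19.0 FPKM in helium 5.6 M, 31.2 FPKM in helium 6.6 M, 37.5 FPKM in nitrogen 5.6 M and 32.1 FPKM in nitrogen 6.6 M oocytes. For NDUFA1 the low levels were shared by both helium groups, whereas KBTBD3 was lowest in helium 5.6 M. RPL37, ACYP1, TIMM8B, RIIAD1, CCDC173 and LARP7 had log2 differences of -0.81, -0.63, -0.68, -0.67, -0.77 and -0.64. SLC7A2, a relative of SLC7A3, and WBSCR22 had 0.81 and 0.57. For SNRPC the difference was 0.02 (95% interval -0.32 to 0.35), for UBE2C -0.03 (-0.40 to 0.35) and for PRDX2 -0.10 (-0.40 to 0.19), so that differences beyond 0.40 on the log2 scale lie outside these intervals. For HNRNPL it was -0.59 (-0.95 to -0.23), for Metazoa_SRP -1.50 (-2.40 to -0.61) and for NEK2 0.43 (0.10 to 0.76), each interval taken without adjustment over genes. HNRNPL, Metazoa_SRP and NEK2 were chosen by their helium 5.6 M values, which this contrast also uses.

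**Figure D4:**
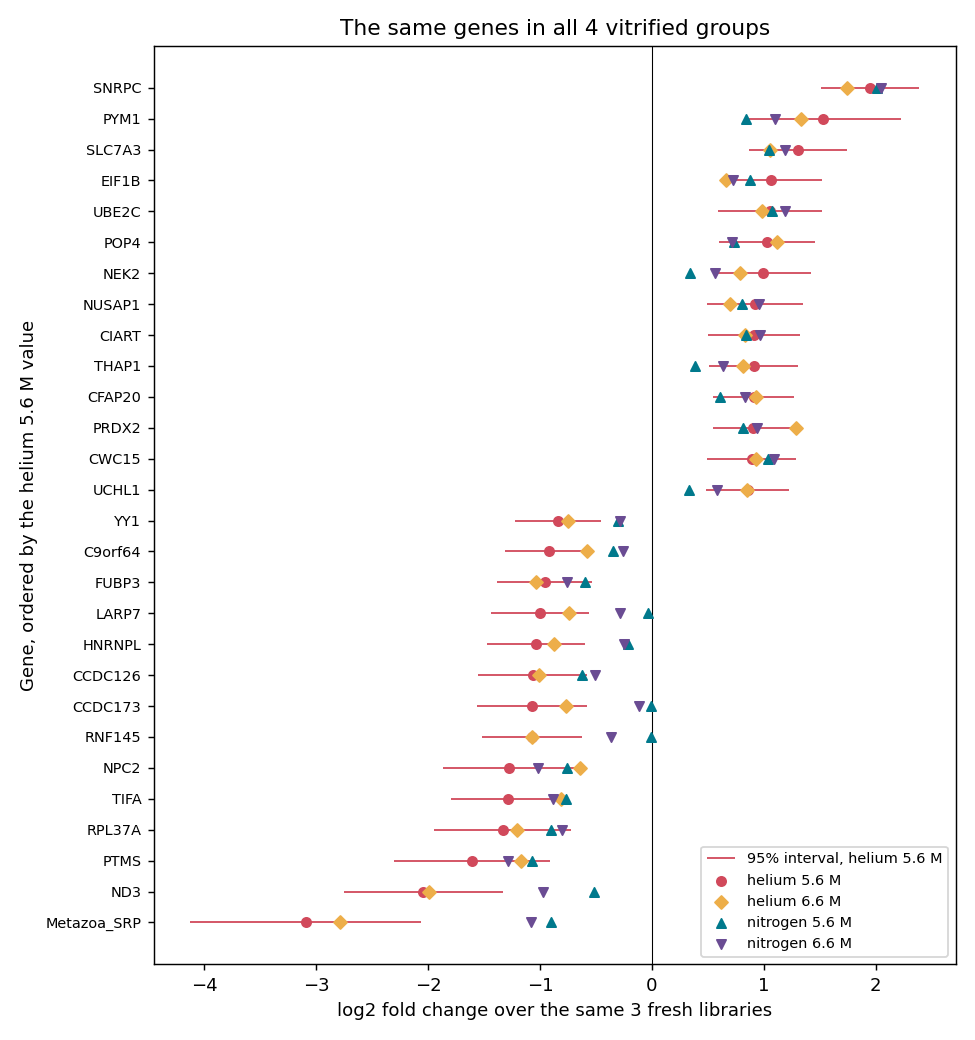
Log2 fold change over the same 3 fresh libraries (horizontal axis) of 28 of the 29 genes with a symbol that passed, in helium 5.6 M (circles, with the 95% interval), helium 6.6 M (diamonds), nitrogen 5.6 M (upward triangles) and nitrogen 6.6 M oocytes (downward triangles). For SNRPC all 4 symbols lie between 1.75 and 2.05, whereas for RNF145 the helium groups lie at -1.07 and -1.07 and the nitrogen groups at -0.01 and -0.36.

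Other systems that cooling, dehydration or cryoprotectants might be asked about gave no gene past the threshold. Over all 8441 genes tested 0.474% passed, so 0 in lists of this size lies near that share and does not set these systems apart. Of 37 tested genes of heat shock proteins, chaperones and the cold response 0 passed, with a median log2 fold change of 0.03, and the chaperonin genes CCT3 and CCT4 and the mitochondrial chaperone gene HSPA9 had log2 differences of 0.59, 0.64 and 0.60 (edgeR adjusted p = 0.172, 0.229 and 0.197). The co-chaperone gene PTGES3 stood at -0.53. Of 51 genes of the unfolded protein response and of protein entry into the endoplasmic reticulum 0 passed, with a median of -0.09, and the p24 cargo receptor gene TMED7, the translocon genes SEC62 and SEC63 and the kinase gene EIF2AK4 stood at -0.67, -0.76, -0.50 and -0.43. Of 25 apoptosis regulators 0 passed, with a median of 0.09, and the survival gene BCL2L2 stood at -0.86 and BNIP1, PDCD5 and BNIP3 at 0.95, 0.55 and 0.49. Of 25 genes of calcium release, egg activation and fertilisation 0 passed, with a median of 0.01. PPP3CA, the catalytic subunit of calcineurin, CAMK2D and the ryanodine receptor gene RYR2 had log2 differences of -0.88, 0.80 and 0.80.

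Carbohydrate metabolism had 0 of 31 genes past the threshold and a median of 0.20, with 22 of the 31 above 0. Here and in the lists below, 0 is again near the 0.474% that passed of all genes tested. The germ-cell lactate dehydrogenase gene LDHC stood at 0.86 (edgeR adjusted p = 0.0816), the glycolytic gene PGK1 at 1.62 and the citric acid cycle genes MDH2 and FH at 0.76 and 0.35. Of 77 genes of the mitochondrial ribosome and of mitochondrial import 0 passed, with a median of 0.10, and MRPL20, MRPL43, MRPL33 and the import receptor gene TOMM20 stood at 0.80, 0.97, 0.75 and -0.54. Of 54 genes of chromatin, histones and DNA methylation 0 passed, with a median of 0.00. SAP30, of the Sin3 deacetylase complex, averaged 10.95 ± 0.284 FPKM in helium 5.6 M oocytes and 27.6 ± 9.03 FPKM in fresh oocytes, a log2 difference of -1.38 that missed the threshold narrowly (edgeR adjusted p = 0.0543). The deacetylase gene SIRT1, HIST2H2BE and the methyltransferase gene EHMT1 stood at -0.83, -1.08 and 0.88. Of 57 DNA repair genes 0 passed, with a median of 0.13, and APEX1, XRCC6, MSH6 and RPA1 stood at 0.75, 0.68, -0.43 and 0.35. Of 62 proteasome and autophagy genes 0 passed, with a median of 0.14, and PSME4, GABARAP, PSMB3 and ATG3 stood at -0.46, 0.68, 0.58 and -0.50.

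Marker lists gave 1 passing gene, UCHL1 among 14 tested oocyte markers, whose median was 0.42. Of 10 tested cumulus and granulosa markers 0 passed, with a median of -0.30. SERPINE2 had a log2 difference of 1.19 (edgeR adjusted p = 0.0902), HAS2 and PTGS2, both induced during cumulus expansion, -0.36 and -0.35. TIMP1 stood at 14.0, 1.16 and 16.0 FPKM in helium 5.6 M oocytes and at 1.55, 0 and 0 FPKM in fresh oocytes, so that 2 of 3 helium libraries were high and 1 was not. TNFAIP6, of the same marker list, was high in the same 2 libraries. It stood at 9.39, 0.15 and 7.30 FPKM in helium libraries 3, 4 and 5 and at 0, 2.01 and 0.78 FPKM in the fresh libraries. CD3E and VWF, the single tested markers of immune cells and of stroma, had log2 differences of 1.40 and 1.09 and did not pass, and no sperm marker was tested.

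**Figure D5:**
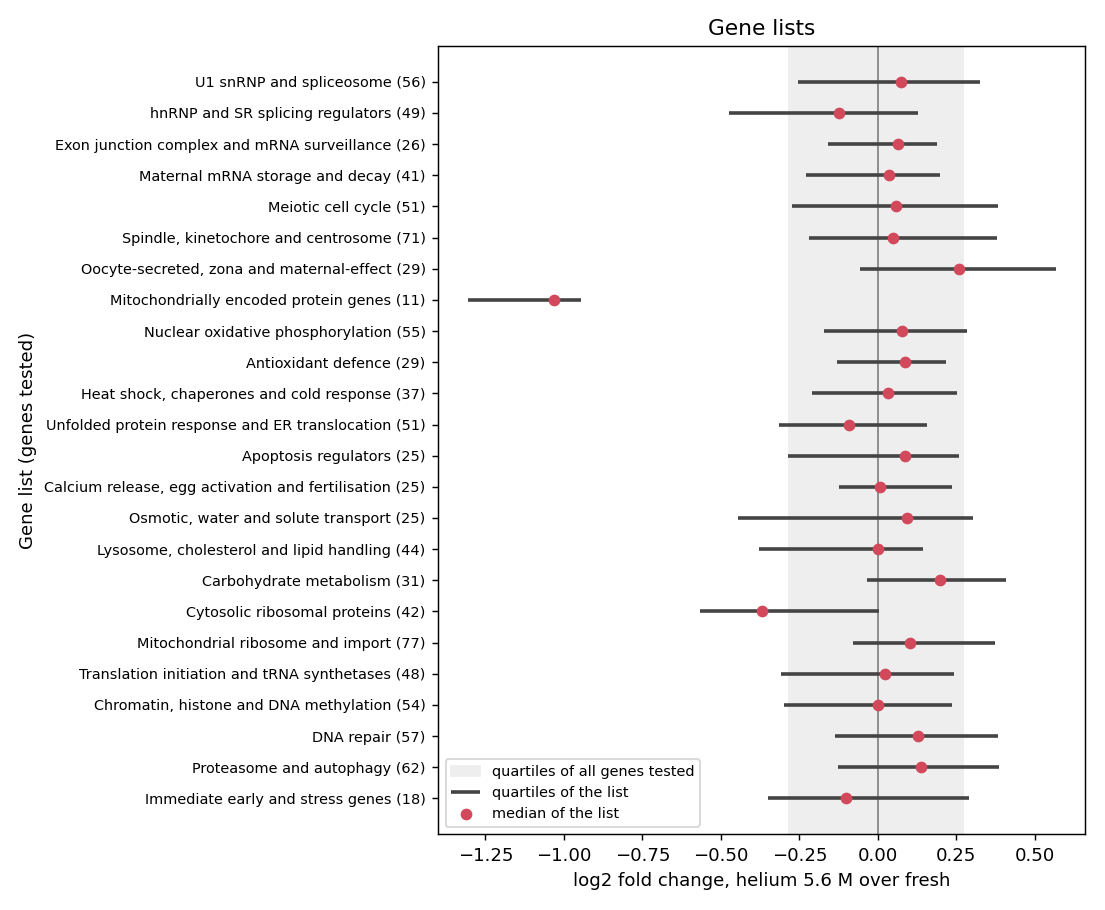
Median (red points) and quartiles (bars) of the log2 fold change of helium 5.6 M over fresh oocytes in 24 gene lists, with the number of genes tested in parentheses and the quartiles of all genes tested shaded, from -0.28 to 0.27. Mitochondrially encoded protein genes have the lowest median, -1.03, followed by cytosolic ribosomal protein genes at -0.37, and oocyte-secreted, zona and maternal-effect genes have the highest, 0.26.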

How the data were processed

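Transcript abundance was measured by RNA sequencing of cDNA made with SMARTer kits, per the labels' protocols. The genome build UMD3.1, StringTie 1.3.0 and HISAT2 2.0.4 are listed, per the submitters' processing notes, without their roles. The authors deposited 1 table of 24616 genes, with raw counts per gene and library, per the file headers and the whole-number values. FPKM values were deposited by the authors in the same table, and they equal the counts over gene length and library total within 0.067%, so both hold 1 measurement and FPKM serves here for description. These sources do not describe strand use or the counting of multiply placed reads.

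Counts were tested with edgeR 4.0.16 in R 4.3.3. Genes passing filterByExpr by group (8441) were scaled by TMM and fitted in 1 robust quasi-likelihood model of all 5 groups, which share the estimate of the spread. Contrasts were helium 5.6 M against fresh and against the mean of the other 3 vitrified groups, with Benjamini-Hochberg adjustment over all genes tested and a threshold of 0.05. The procedure was tested on simulated data. Single values per library were compared by exact permutation tests. A 95% exact interval of a library's mitochondrial share is at most 0.0872 points wide and covers counting error only. Alternatives were size factors of DESeq2, no filter, these groups alone, DESeq2 1.42.0, thinning, depth class as a term, no mitochondrial genes, and each library left out. Libraries of 1 group were compared for copies, and their counts differed beyond sampling noise in every pair (chi-square over its degrees of freedom of 14.5 to 30.9).

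Named were the genes past the threshold with a symbol, with full statistics for the 12 largest rises and 12 largest falls, the members of each list that passed or else those of smallest p up to 4, and, against the other vitrified groups, the 10 genes of smallest p. The comparison, the gene lists and these rules were chosen with earlier results of these data known. Values of 2 genes that these rules name are not reported here.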

Additional observations from a re-analysis of the deposited data

How the results depend on the processing

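The count of 40 genes between helium 5.6 M and fresh oocytes was 38 with DESeq2's size factors, 160 with no filter on low counts and 5 in a fit of these groups alone. It was 244 by DESeq2, with 36 of the 40 among them and the others left without an adjusted p there. It was 24 after thinning, 25 without mitochondrial genes and 0 with depth class as a term, and ranged from 1 to 431 with 1 library left out. Genes with an adjusted p numbered 8441 in the main fit, 16294 with no filter, 5822 by DESeq2 and 9610 without fresh library 2. The cause was not tested. Thinning, the smaller fit and the left-out libraries also use fewer reads or libraries. Against the other vitrified groups the count of 0 was 8 with no filter, 1 in a fit of the groups compared alone, 2 by DESeq2 and 2 with depth class as a term, and stayed 0 in the other alternatives run. No log2 fold change of the 29 genes with a symbol changed sign under any alternative run. All 29 fell short of the threshold with depth class as a term, 26 in the fit of these groups alone and 12 after thinning, and 29 of 29 passed without fresh library 2. The medians of the gene lists moved most often with depth class as a term, in 15 of 24 lists. With 1 library left out, 8 of the 24 list medians lay on the other side of 0 at least once: antioxidant (-0.01 to 0.12), calcium and egg activation (-0.03 to 0.09), chromatin (-0.12 to 0.13), heat shock (-0.08 to 0.05), immediate early (-0.37 to 0.40), lysosome and lipid (-0.10 to 0.04), maternal mRNA (-0.09 to 0.01) and unfolded protein response genes (-0.12 to 0.01). The difference in mitochondrial share ranged from -3.14 to -0.882 points and that in genes detected from 32.8 to 693 with 1 library left out, and neither changed sign. No paired analysis was possible because the groups share only 1 replicate number. The fresh libraries held 1601519 to 2822837 counts, and how far that depth limited detection was not tested. The median standard error over all genes tested, with 3 libraries per group, was 0.29 on the log2 scale.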

Other observations

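Of the 10 genes with the highest mean FPKM in helium 5.6 M oocytes, none passed between the groups, and 9 of the 10 were also among the 10 highest in fresh oocytes. A gene the table describes as thymosin beta-4 (ENSBTAG00000038488), an actin-sequestering peptide, averaged 37370 ± 1626 FPKM in helium 5.6 M oocytes and 40410 ± 10630 FPKM in fresh oocytes (SD, n = 3 each), the highest mean of either group. BTG4, an adaptor that brings the CCR4-NOT deadenylase to maternal mRNA, averaged 31660 ± 5068 FPKM in helium 5.6 M oocytes and 26750 ± 9084 FPKM in fresh oocytes. A gene described as securin (ENSBTAG00000012184), the inhibitor of separase, averaged 28100 and 27870 FPKM in helium 5.6 M and fresh oocytes. The cyclin-dependent kinase subunit genes CKS1B and CKS2 averaged 21710 and 7030 FPKM in helium 5.6 M oocytes, against 15690 and 6610 FPKM in fresh oocytes. Their log2 differences were 0.35 (95% interval -0.23 to 0.93) and -0.01 (-0.58 to 0.56).

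A gene described as oocyte-secreted protein 1 (ENSBTAG00000027348) averaged 11440 ± 1466 FPKM in helium 5.6 M oocytes and 15610 ± 5383 FPKM in fresh oocytes, the centriole gene CETN3 6750 ± 404 and 8275 ± 3719 FPKM, and the mitochondrial gene COX3 6809 ± 281 and 10360 ± 4439 FPKM in the same order of groups. In each of these the fresh libraries spread more widely than the helium ones. The remaining 2 genes of the 10 had neither symbol nor description, ENSBTAG00000046117 and ENSBTAG00000017246. The second averaged 8182 ± 1459 FPKM in helium 5.6 M oocytes and 4492 ± 818 FPKM in fresh oocytes, its libraries did not overlap between the groups, and its log2 difference of 0.80 did not pass (edgeR adjusted p = 0.144).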
